A study of Mus musculus with 24 samples.

Results

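The change in gene expression from day 0 (d0) to day 3 (d3) of white adipogenesis was measured in primary mouse cells in which the lincRNA *H19* had been silenced. Genes entered when their FPKM reached 1 in 3 or more of the 6 libraries, which gave 13357 of the 49452 genes of the deposited table. FPKM, fragments per length of transcript and per number of mapped fragments, correct a gene's reads for its length and for the size of the library. Of the remaining genes, 23397 had a value of 0 in all 6 libraries. At the border of this filter, 178 genes had between 1 and 1.1 FPKM in the library that decided their entry, and 188 between 0.9 and 1.

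The cells were stromal-vascular fractions (SVF), the non-adipocyte cells of fat, isolated from visceral white adipose tissue (vWAT) of male C57BL/6 mice. They were nucleofected with an siRNA against *H19* (siH19) or a non-targeting control siRNA (siCtrl, written siKO in the sample titles) before induction. Adipogenesis was induced with insulin, dexamethasone, rosiglitazone and IBMX and continued in rosiglitazone. The 4 vWAT groups are siH19 d0, siH19 d3, siCtrl d0 and siCtrl d3, with 3 libraries each, and brown adipose tissue (BAT) SVF received the same siRNAs, among 24 libraries in all. For BAT cells the induction medium is described with indomethacin and triiodothyronine (T3), the labels and methods differing on whether IBMX was given too, and they were continued in T3 instead of rosiglitazone, so that depot, medium and label series cannot be told apart. All cells, controls included, had been nucleofected, and d0 cells had not received the induction medium. Nothing in the labels says whether replicates came from separate animals or cultures, so p-values measure the spread between these libraries, which may be technical. The cells were a mixed population.

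During adipogenesis, the glucocorticoid and the cAMP-raising agent of the induction medium act early through the C/EBPβ and C/EBPδ factors, which turn on PPARγ and C/EBPα. The latter pair, with rosiglitazone as an agonist of PPARγ, drives genes of lipid storage, insulin-responsive glucose uptake and adipokine secretion, while precursors lose matrix, cytoskeletal and anti-adipogenic gene expression. *H19* is a maternally expressed imprinted non-coding RNA next to the paternally expressed growth factor gene *Igf2*, and is known for restraining imprinted gene networks and for promoting brown rather than white adipogenesis.

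The siRNAs are shown because they define the cells. The methods name a single siRNA against *H19*, while the sample titles carry the number 3 after siH19, and the supplementary list holds 3 siRNAs, of which siH19 and siH19#3 are the candidates. Their guide strands read as follows, 5′ to 3′, with the 19 bases that pair in the duplex in capitals.
siH19: UCUUGAUUCAGAACGAGACgg
siH19#3: UGGUGUUCAAGAAGGCUGGat
The site of siH19 in the mouse RNA, GTCTCGTTCTGAATCAAGA, lies in exon 4 of the 5 exons of the longest *H19* transcript (2286 nt), at chr7:142576255-142576273 on the minus strand (GRCm38). The site of siH19#3, CCAGCCTTCTTGAACACCA, spans the junction of exon 2 (12 bases, chr7:142576613-142576624) and exon 3 (7 bases, chr7:142576524-142576530). Each of the sites is present in 5 of the 7 annotated *H19* transcripts. Which of them was used could not be settled from these sources.

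*H19* (ENSMUSG00000000031, chr7:142575529-142578143) was lower in every siH19 library than in the siCtrl libraries of the same depot and day. Its FPKM were 1.23, 0.63 and 1.76 at d0 and 0.327, 0.291 and 0.966 at d3 in siH19 vWAT cells. In siCtrl vWAT cells its mean was 11.7 ± 0.528 at d0 and 8.59 ± 0.361 at d3 (SD, n = 3 each), and no siH19 vWAT library reached a siCtrl vWAT library. Since fewer than 3 of the 6 libraries reached 1, *H19* was below the filter and its change in siH19 cells was not tested. In BAT cells the siCtrl means were 130.0 and 89.8 and the siH19 means 4.36 and 13.7.

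The 6 siH19 vWAT libraries were alike in the number of genes detected, while their FPKM sums were higher at d3 than at d0. FPKM sums ran from 733170 to 841456 (733170 to 772251 at d0 and 834057 to 841456 at d3), 12980 to 13079 genes reached an FPKM of 1, and the 10 highest genes took 12.4 to 14.9% of the sum. The read depth is not in the table. Relative depths inferred from low values were 1.02 to 1.17 times the median of all 24 libraries. Pearson's r of log2 values across genes was 0.9809 to 0.9842 between replicates and 0.883 to 0.894 between d0 and d3. Where the median FPKM of a tested gene was 5 or more, 74 genes were listed at 0 in at least 1 of the 6 libraries. Such a 0 can be a failed estimate rather than absent RNA. The d0 replicate 2 library stood apart in *Cebpb* and in interferon-stimulated genes, which are given below with and without it.

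Depot and cell type markers were examined as a check of the labels. All 6 visceral depot markers were detected, with a summed FPKM of 133 to 144 at d0 and 116 to 120 at d3 against 9.65 to 10.1 and 14.6 to 14.8 in siH19 BAT cells. The 6 brown depot markers summed to 7.54 to 8.35 at d0 and 9.48 to 10.3 at d3, against 34.9 to 38.8 and 39.2 to 43.6 in siH19 BAT cells. Of these, *Zic1*, *Lhx8* and *Epha3* stayed under 1 in all 6 libraries, and 2 of the 3 tested rose, with *Ebf2*, an early factor of brown precursors, the highest at d3 (3.87 to 4.49 at d0 and 5.54 to 5.86 at d3). Among cell types that an SVF can hold besides precursors, markers of mesothelium, the lining of the visceral fat pad, had a summed FPKM of 259 to 284 at d0 and 76.4 to 91.3 at d3, and 9 of 9 tested fell. Macrophage and leukocyte markers summed to 406 to 445 at d0 and 748 to 846 at d3, with 7 of 15 that rose and 3 that fell. *Lyz2*, the lysozyme of macrophages, made up much of this sum with 232, 218 and 242 at d0 and 543, 478 and 532 at d3, while the pan-leukocyte gene *Ptprc* was at 0.706 to 1.31. Endothelial markers summed to 30.6 to 34.7 and 43.4 to 51.2 (2 rose and 2 fell of 7), and pericyte and smooth muscle markers to 1930 to 2370 and 1130 to 1400 (3 rose and 6 fell of 10). Skeletal muscle markers summed to 38.0 to 43.5 and 13.7 to 17.5, with *Myod1* and *Myog* at 0, and epididymal epithelial markers to 13.4 to 17.9 and 4.84 to 6.3. Of these, 8 of 10 muscle and 6 of 8 epithelial markers stayed under 1 in all 6 libraries, so both sums rest on few genes. The highest at d3 were *Des*, also on the pericyte and smooth muscle list, and *Krt7*. Schwann cell markers stayed at or under 1.12 and erythroid markers at or under 1.26 in sum. With 3 libraries against 3, the smallest p of the exact two-sided permutation test is 0.1, which the mesothelial, leukocyte, endothelial, pericyte, muscle and epithelial sums all reached. The part of these cells in the gene changes was not tested. In bulk samples fewer cells of a type and less RNA per cell cannot be told apart.

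More than every second tested gene changed between d0 and d3. Each gene was tested with limma on log2(FPKM + 1), and a call required an adjusted p (Benjamini-Hochberg) under 0.05 together with a change of 1.3-fold or more. Of 13357 genes, 7037 were called (52.7%), of which 3761 rose (28.2%) and 3276 fell (24.5%), while the median change over all tested genes was 0.026 on the log2 scale. At least 2-fold, 1383 genes rose and 1095 fell, and at least 8-fold 98 rose and 69 fell. These log2 values understate the change of low genes, because 1 is added to each FPKM. Of the 7037 called genes, 6297 had a proper name and no overlap between d0 and d3 libraries, so that being apart was usual for a called gene.

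**Figure D1:**
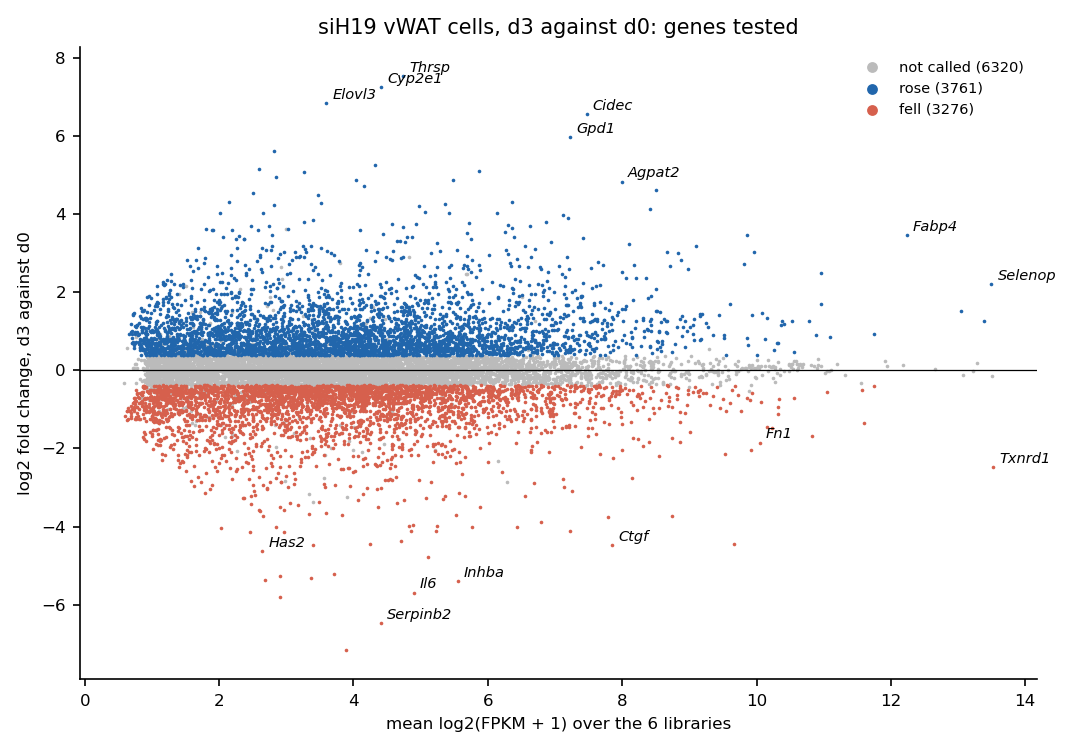
Change of each of the 13357 tested genes in siH19 vWAT cells (log2 fold change d3 against d0, y axis) by its mean log2(FPKM + 1) over the 6 libraries (x axis), with genes that rose in blue (3761), fell in red (3276) and were not called in grey (6320). *Thrsp*, *Cyp2e1* and *Elovl3* lie highest among the named rises and *Serpinb2* and *Il6* lowest among the named falls.

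The 10 largest rises among genes with a proper name and no overlap between d0 and d3 libraries included several of lipid synthesis and storage. *Thrsp*, which promotes lipogenesis, went from 1.18, 0.848 and 0.836 to 382, 354 and 352 FPKM (log2 fold change 7.54 ± 0.08 SE, adjusted p = 6.5e-08). *Cyp2e1*, a cytochrome P450, rose by 7.26, and *Elovl3*, an elongase of very long chain fatty acids, by 6.83 from values of 0.0864 to 0.17. *Cidec*, a lipid droplet protein that fuses droplets, went from 20.5, 12.5 and 20.2 to 1740, 1760 and 1650 (6.55 ± 0.18, adjusted p = 5.5e-07), and *Gpd1*, which makes glycerol-3-phosphate, rose by 5.97. The sulfotransferase *Sult1a1*, the serine palmitoyltransferase subunit *Sptlc3*, the fatty acid transporter *Slc27a1*, the protease inhibitor *Serpina3m* and the carboxylesterase *Ces1d* completed the 10 with rises of 4.94 to 5.26. *Serpina3m*, *Serpina3k* and *Ces1d*, like the actins, belong to families of near-identical genes, so their values are less certain. That d0 and d3 libraries were apart in all 10 was a condition of picking them.

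The 10 largest falls included secreted cytokines and growth factors. *Serpinb2*, an inhibitor of plasminogen activators, went from 165, 206 and 229 to 0.958, 1.06 and 1.81 FPKM (-6.47 ± 0.17, adjusted p = 5.5e-07). *Il6*, the pleiotropic cytokine, went from 160, 233 and 259 to 2.67, 3.26 and 3.56 (-5.69 ± 0.18), and *Inhba*, which encodes the activin A subunit, from 261, 320 and 335 to 6.09, 5.49 and 7.16 (-5.4 ± 0.12). The cytokine *Il11*, the IL-33 receptor *Il1rl1* and the cyclooxygenase *Ptgs2* changed by -5.31, -5.26 and -5.21. *Ch25h* (cholesterol 25-hydroxylase), *Has2* (hyaluronan synthase), *Ereg* (the growth factor epiregulin) and *Ctgf* (a matricellular protein) followed at -4.78 to -4.48. These 10 were picked under the same condition of no overlap between d0 and d3 libraries.

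In absolute FPKM, the RNA of a few genes accounted for large gains and losses. *Selenop*, the selenium carrier selenoprotein P, went from 5310, 5620 and 5180 to 25600, 24500 and 24600 FPKM, and the antioxidant enzyme *Gpx3* from 6910, 6570 and 7190 to 17300, 16800 and 15700. *Fabp4*, the fatty acid binding protein of adipocytes, went from 1540, 1340 and 1500 to 16400, 15500 and 15900. The other gains among the 10 largest were in the mitochondrial *ATP8* and *ND1*, carbonic anhydrase *Car3*, the desaturase *Scd1*, haptoglobin (*Hp*), ferritin heavy chain (*Fth1*) and the acyl-CoA binding protein *Dbi*, with log2 changes of 0.92 to 3.47. The largest loss was in *Txnrd1*, thioredoxin reductase, listed at 24000, 30700 and 28900 at d0 and 4830, 4700 and 5460 at d3. The actins *Actb* and *Actg1*, the protease inhibitor *Timp1*, fibronectin (*Fn1*), thrombospondin (*Thbs1*), serum amyloid (*Saa3*), the macrophage growth factor *Csf1* and collagen *Col1a1* were also among the 10 largest losses, at -1.35 to -3.74.

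The genes were grouped into 40 lists by role. Each list's counts stand beside the 28.2% of all tested genes that rose and the 24.5% that fell. Of 1087 list members tested, 830 were called (76.4%), against 52.7% of all tested genes. The lists were chosen with results of these data known, so this share is a description. Genes introduced with "among the other members", as the single fall or single uncalled gene of a list or among marker lists were picked after their values were seen.

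**Figure D2:**
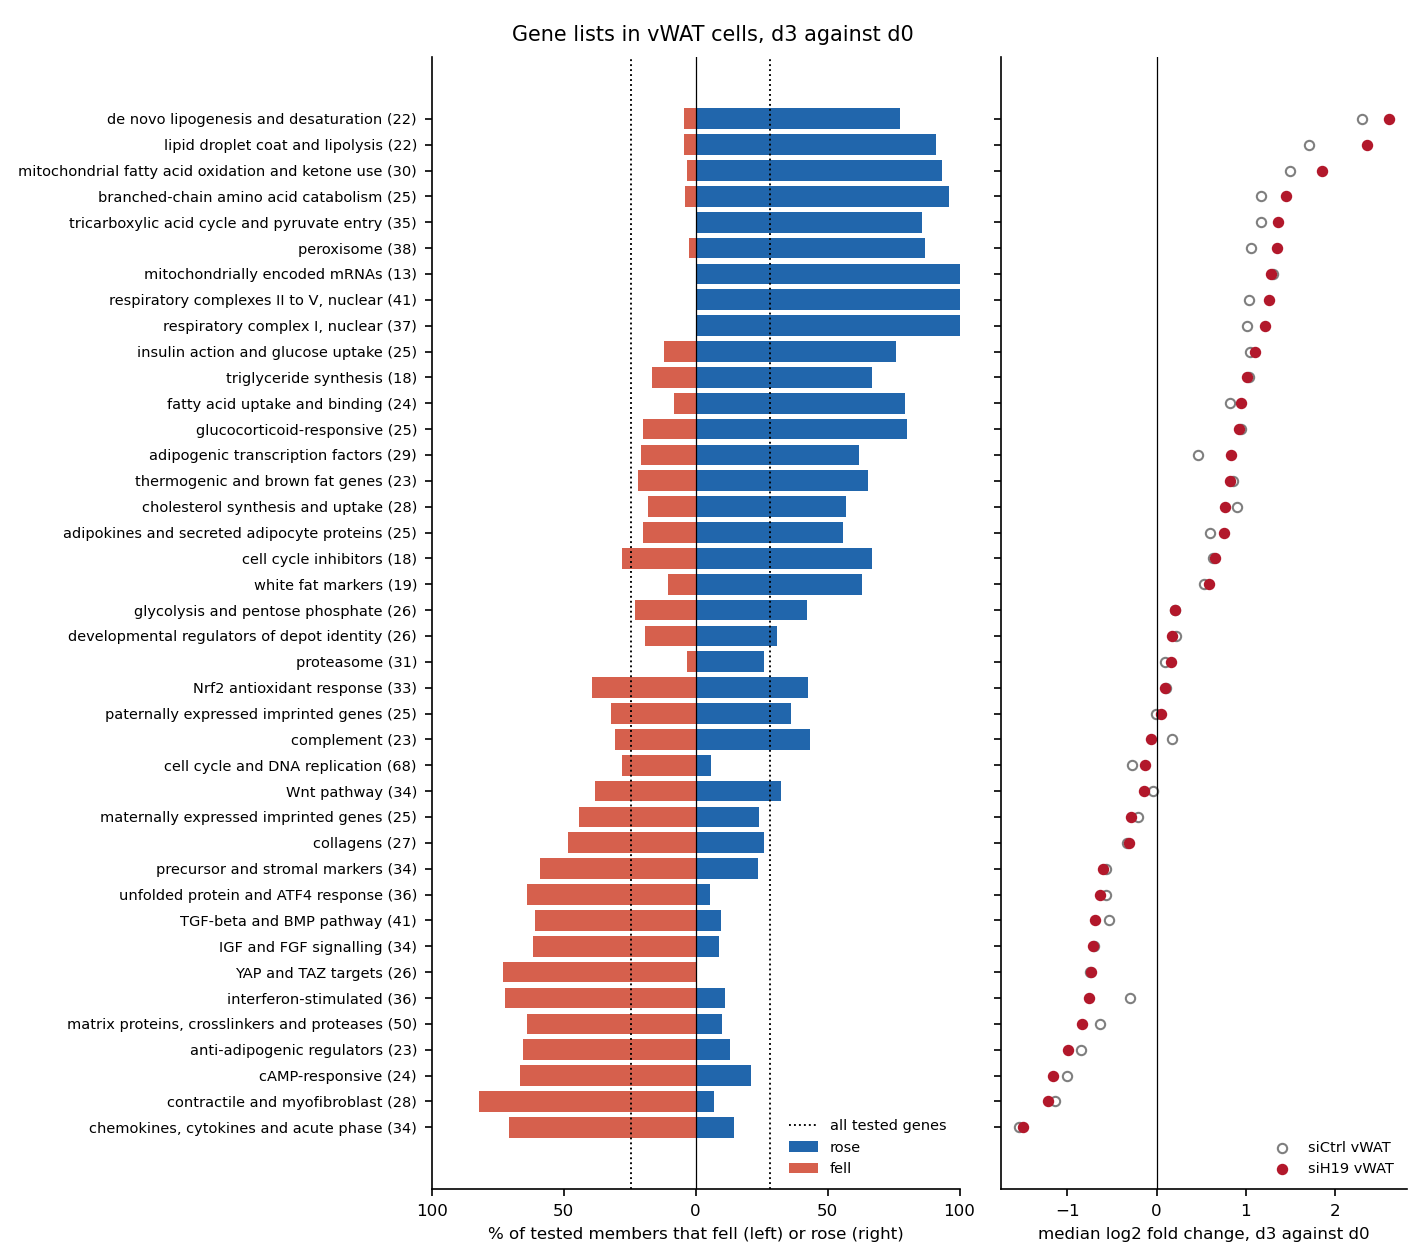
For each of the 40 gene lists (number of tested members in brackets), the bars on the left give the percent of tested members that rose (blue) or fell (red) in siH19 vWAT cells at d3 against d0, with dotted lines at the shares of all tested genes (28.2% and 24.5%). On the right the median log2 fold change is drawn for siH19 (red) and siCtrl vWAT cells (open grey). Lipid and mitochondrial lists are at the top and cytokine, contractile and cAMP lists at the bottom.

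Adipogenic transcription factors rose for the most part, with 18 of 29 tested that rose, 6 that fell and a median of 0.83. *Pparg*, the master regulator of adipogenesis, was at 36.5, 36.7 and 38.1 FPKM at d0 and 86.5, 73.0 and 82.3 at d3 (1.1 ± 0.07, adjusted p = 1.6e-05). *Cebpa*, its partner in the late phase, went from 95.7, 88.9 and 85.9 to 402, 376 and 388 (2.1 ± 0.05, adjusted p = 4.8e-07). The groups did not overlap for either. The early factors moved in opposite directions: *Cebpd* rose from 10.4 to 11.7 to 20.1 to 23.2 (0.90), whereas *Cebpb* fell from 114, 187 and 105 to 53.4, 56.1 and 55.2 (-1.24 ± 0.20, adjusted p = 0.0016). The highest d0 value of *Cebpb* was that of replicate 2, and without that library the list held 17 rises and 4 falls. Among the other members, the glucocorticoid-induced *Zbtb16* rose by 3.43, the lipogenic factors *Mlxipl* (ChREBP) and *Srebf1* by 2.97 and 2.17, *Klf15* by 2.73 and the oxysterol receptor *Nr1h3* by 2.64.

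Anti-adipogenic regulators fell in 15 of 23 tested members and rose in 3, with a median of -0.99. *Gata2*, which restrains *Pparg*, went from 25.5, 23.6 and 19.9 to 10.2, 9.58 and 9.02 (-1.17), and the osteogenic factor *Runx2* from 11.1, 10.4 and 6.11 to 3.19, 2.64 and 1.84 (-1.5). *Dlk1*, the preadipocyte factor Pref-1 and itself imprinted, went from 42.1, 47.9 and 47.8 to 13.1, 11.7 and 9.8 (-1.91 ± 0.11, adjusted p = 9.8e-06). No d3 library reached a d0 library in these 3 genes, which was usual for called genes. *Gata3* had scattered values of 3.59, 0.425 and 2.52 at d0 and 1.34, 0.206 and 0.0381 at d3 and was not called, although it was without d0 replicate 2 (-1.49).

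**Figure D3:**
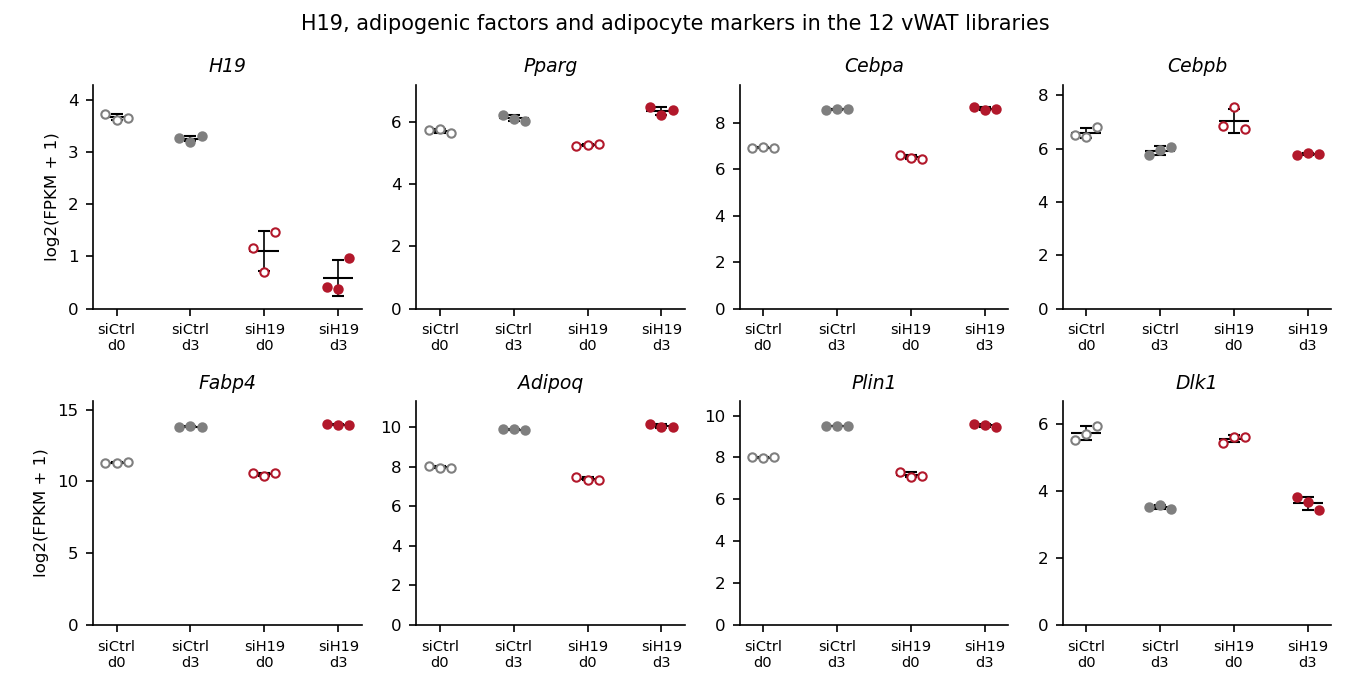
log2(FPKM + 1) of *H19*, *Pparg*, *Cebpa*, *Cebpb*, *Fabp4*, *Adipoq*, *Plin1* and *Dlk1* (y axis) in the 12 vWAT libraries by siRNA and day (x axis), with points for libraries, open at d0 and filled at d3, horizontal bars for the mean and whiskers for the SD (n = 3). *H19* is lower in all siH19 libraries, the adipocyte genes are higher and *Dlk1* is lower at d3 with either siRNA.

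Genes of the lipid droplet and of lipolysis rose nearly throughout, with 20 of 22 tested that rose, 1 that fell and a median of 2.36. The droplet coat proteins *Plin1* (157, 135 and 140 to 772, 744 and 705 FPKM, 2.36 ± 0.07) and *Plin4* (13.4 to 15.7 at d0 and 78.7 to 82.0 at d3) rose about alike. *Pnpla2*, adipose triglyceride lipase, went from 86.3, 74.7 and 80.5 to 1500, 1370 and 1400 (4.13 ± 0.06, adjusted p = 1.6e-07), hormone-sensitive lipase *Lipe* from 41.8, 35.9 and 37.7 to 395, 374 and 381 (3.29), and the lipase inhibitor *G0s2* from 127 to 132 to 659 to 684 (2.36). *Pnpla2*, *Lipe* and *G0s2* thus moved the same way. The single fall was in *Hilpda*, a hypoxia-induced droplet protein (-1.73).

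Triglyceride synthesis showed 12 rises and 3 falls among 18 tested members, with a median of 1.01. *Agpat2*, which makes phosphatidic acid, went from 49.3, 44.7 and 46.2 to 1420, 1310 and 1340 FPKM (4.83 ± 0.05, adjusted p = 6.5e-08). The enzymes of the last step, *Dgat2* and *Dgat1*, rose by 2.95 and 2.65, and *Gpam*, which starts glycerolipid synthesis, by 1.79. In de novo lipogenesis and desaturation, 17 of 22 rose and 1 fell, with a median of 2.60. Fatty acid synthase *Fasn* went from 40.7, 36.0 and 27.7 to 328, 296 and 290 (3.11 ± 0.14), acetyl-CoA carboxylase *Acaca* rose by 3.05, stearoyl-CoA desaturase *Scd1* by 3.47 and the citrate lyase *Acly* by 1.01. For fatty acid uptake and binding, 19 of 24 rose and 2 fell (1 without d0 replicate 2), with a median of 0.95. The scavenger receptor *Cd36* went from 188, 167 and 172 to 1310, 1230 and 1220 (2.83), and lipoprotein lipase *Lpl* rose from 618 to 693 to 1740 to 1850 (1.46). The groups of libraries were apart in all these named lipid genes, as in most called genes.

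Adipokines split. Of 25 tested members, 14 rose and 5 fell, with a median of 0.76. *Adipoq*, adiponectin, went from 178, 161 and 160 to 1130, 1020 and 1020 FPKM (2.66 ± 0.06, adjusted p = 3.7e-07), resistin *Retn* from 78.8 to 85.7 to 298 to 307 (1.85) and the retinol carrier *Rbp4* from 46.5 to 52.5 to 111 to 120 (1.22). Adipsin *Cfd* went the other way, from 147, 126 and 153 to 61.1, 64.2 and 54.0 (-1.23 ± 0.09). Leptin *Lep* stayed at or under 0.193 in all 6 libraries and was below the filter. Genes of insulin action and glucose uptake rose in 19 of 25 members and fell in 3, with a median of 1.1. The insulin-responsive transporter *Slc2a4* (GLUT4) went from 0.957, 0.978 and 0.664 to 26.2, 22.3 and 20.8 (3.69 ± 0.12), and the receptor *Insr* from 4.8 to 7.43 to 12.8 to 14.7 (1.17). The adaptor *Irs1* (1.12 to 1.38 and 1.25 to 1.61) was not called. Among the other members, the basal transporter *Slc2a1* (GLUT1) fell from 103, 134 and 132 to 18.1, 19.3 and 18.3 (-2.65).

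Thermogenic genes were mixed. Of 36 members, 23 passed the filter, of which 15 rose and 5 fell, with a median of 0.82. *Ucp1*, the uncoupling protein of brown fat, was listed at 0 in all 6 libraries, and *Cidea* was at or under 0.0389. *Elovl3*, an elongase induced in brown fat by cold and given above among the largest rises, went from 0.0864, 0.17 and 0.145 to 132, 125 and 126 (6.83). *Ppargc1a*, the coactivator of mitochondrial biogenesis, went from 0.519, 0.271 and 0.522 to 3.09, 3.52 and 1.99 (1.41 ± 0.17). The thyroid hormone deiodinase *Dio2* scattered from 5.41 to 16.1 at d0 and 0.151 to 11.9 at d3 and was not called, although it was without d3 replicate 3 (-2.07). White fat markers rose in 12 of 19 and fell in 2, with a median of 0.59. *Agt*, angiotensinogen, went from 83.0 to 90.4 to 312 to 341 (1.90), and the homeobox gene *Hoxc8* from 23.4 to 24.5 to 38.5 to 40.9 (0.70), while *Hoxc9* (4.24 to 4.66 and 3.95 to 5.25) was not called.

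Mitochondrial genes rose together. In the respiratory chain, 37 of 37 nuclear complex I subunits (median 1.21), 41 of 41 nuclear subunits of complexes II to V (median 1.26) and 13 of 13 mitochondrially encoded mRNAs (median 1.28) rose, against 28.2% of all tested genes. *Ndufs1* of complex I went from 43.0, 45.4 and 40.5 to 135, 117 and 126 FPKM (1.53 ± 0.07), *Ndufa4* rose by 0.90 and *Ndufb8* by 1.04. *Uqcrc1* of complex III rose by 1.29, *Cox5a* of complex IV by 1.19 and *Atp5b* of the ATP synthase by 1.27, from 918 to 966 to 2180 to 2410. The summed FPKM of the 13 mitochondrial mRNAs was 8780 to 9500 at d0 and 23600 to 27600 at d3. *ND1* went from 1110, 1110 and 1100 to 3580, 3770 and 3350 (1.69), while *COX1* and *CYTB* rose by 1.18 and 1.17. *ATP8* (4820 to 5220 at d0) and *ATP6* (3.42 to 4.75 at d0) overlap in the genome, so that how reads were divided between them is uncertain.

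Substrate oxidation rose with the respiratory chain. In fatty acid oxidation and ketone use 28 of 30 members rose, with a median of 1.85. The long-chain acyl-CoA dehydrogenase *Acadl* went from 52.3, 50.1 and 54.3 to 411, 382 and 390 FPKM (2.89 ± 0.05), *Hadha* and *Hadhb* of the trifunctional protein rose by 1.63 and 1.86, and the carnitine transferase *Cpt2* by 2.04. The ketone dehydrogenase *Bdh1* (means of 1.57 and 2.0) was not called, and *Cpt1a*, the outer membrane carnitine transferase, fell from 26.0 to 26.9 to 14.0 to 15.5 (-0.80). In the tricarboxylic acid cycle and pyruvate entry 30 of 35 rose and none fell, with a median of 1.36, a further 5 not being called. Citrate synthase *Cs* rose by 1.91, *Idh3a* of isocitrate dehydrogenase by 2.51 and *Pdha1* of pyruvate dehydrogenase by 1.23. Catabolism of branched-chain amino acids rose in 24 of 25 (median 1.45), with the mitochondrial transaminase *Bcat2* from 22.7, 30.7 and 26.8 to 367, 346 and 352 (3.69 ± 0.10) and the dehydrogenase subunits *Bckdha* and *Bckdhb* at 1.31 and 2.91. Its single fall was in *Bcat1*, the cytosolic transaminase, from 90.3 to 91.2 to 27.2 to 32.2 (-1.59). Of peroxisomal genes 33 of 38 rose and 1 fell (median 1.35), with the proliferation factor *Pex11a* at 1.72 and catalase *Cat* at 1.59.

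Cholesterol and glucose pathways were mixed. In cholesterol synthesis and uptake 16 of 28 rose and 5 fell, with a median of 0.77. *Sqle*, squalene epoxidase, was at 34.1 to 34.6 and 26.7 to 28.4, a difference under the minimum fold. Among the other members, *Dhcr7* of the last step of synthesis rose by 3.37. Glycolysis and the pentose phosphate pathway had 11 rises and 6 falls among 26, with a median of 0.21. Hexokinase *Hk2* fell from 42.7, 50.7 and 43.9 to 14.4, 12.1 and 12 (-1.75), pyruvate kinase *Pkm* by 0.43 on the log2 scale, and *Pfkl* (69.8 to 78.5 over all 6) and *Ldha* (655 to 728) were not called.

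Cell cycle genes barely moved as a group. Of 68 tested genes of the cell cycle and DNA replication, 19 fell, 4 rose and 45 were not called, with a median of -0.13, so that the share that fell was close to the 24.5% of all tested genes. Without d0 replicate 2, 23 fell. The proliferation marker *Mki67* was at 6.71, 5.35 and 5.19 and then 4.07, 4.10 and 3.87 (-0.42, not called without d0 replicate 1 at -0.32). *Top2a* (21.5 to 26.5 and 20.9 to 22.8), *Ccnb1*, *Cdk1* and *Rrm2* overlapped between days and were not called. The helicase subunit *Mcm2* (22.4 to 29.3 and 13.5 to 23.9, -0.55) was not called either, but was without d0 replicate 3 (-0.67) or d3 replicate 3 (-0.74). *Mcm2* was also called under trimmed-mean (-0.58) or upper-quartile scaling (-0.56) and among genes with an FPKM of at least 5 (-0.55). The inhibitors, in contrast, rose in 12 of 18 and fell in 5, with a median of 0.65. *Cdkn1c* (p57), also imprinted, went from 1.74, 3.20 and 2.15 to 27.0, 28.5 and 26.7 (3.10 ± 0.15) and *Cdkn2c* (p18) from 15.1 to 16.9 to 76.9 to 81.3 (2.22), while *Cdkn1a* (p21) was at 212 to 236 and 169 to 178 and below the minimum fold (it was called without d0 replicate 1 and under trimmed-mean scaling, at -0.39 in each). In the RefSeq promoters of GRCm38.p6 (250 bases before to 50 after each start), the CCAAT box, searched as CCAAT on both strands, was present in 43 of 63 promoters of 57 matched cell cycle genes (68.3%) and in 37.4% of all 32851. The CHR, written as the letters TTTGAA on either strand or as the palindromic variant TTCGAA, was in 28 (44.4%) against 19.2% of all. In 95 promoters of 69 matched genes of the 4 lipid lists these shares were 44.2% and 10.5%, and the C/EBP palindrome TTGCGCAA, found in 0.183% of all promoters, was in none. A match to these letters describes the sequence and does not show binding.

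Precursor and stromal markers fell in 20 of 34 and rose in 8, with a median of -0.60. *Pdgfra*, the PDGF receptor of fat precursors, went from 119, 114 and 109 to 77.3, 83.0 and 79.0 FPKM (-0.51), whereas *Ly6a* (Sca-1) rose from 353 to 458 to 554 to 648 (0.60). *Cd34* was at 10.9 to 13.3 and 13.7 to 16.5 and was not called, but was without d3 replicate 2 (0.38). A separate list of 14 adipose precursor markers summed to 3450 to 3610 at d0 and 2330 to 2400 at d3. Collagens moved in both directions. Of 27 tested collagens 13 fell and 7 rose, with a median of -0.31. Among all tested genes 24.5% fell and 28.2% rose, so the share of collagens that rose was close to that of all genes. *Col1a1* went from 1960, 1850 and 1850 to 678, 749 and 648 (-1.45) and *Col15a1* fell by 0.59 on the log2 scale, basement membrane *Col4a1* rose by 0.46, and *Col3a1* remained the most abundant of those named with 8820 to 9120 and 7890 to 8790 (not called). Among other matrix proteins, crosslinkers and proteases 32 of 50 fell and 5 rose, with a median of -0.84. Fibronectin *Fn1* fell by 1.85, the crosslinker *Lox* by 0.85 and the protease *Mmp3* by 1.12, while periostin *Postn* went from 149, 135 and 143 to 269, 240 and 250 (0.83).

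Contractile and myofibroblast genes fell in 23 of 28 and rose in 2, with a median of -1.22. *Tagln* (SM22) went from 1230, 1120 and 1400 to 584, 688 and 562 FPKM (-1.03 ± 0.11) and smooth muscle actin *Acta2* from 675 to 809 to 464 to 566 (-0.57). Calponin *Cnn1* fell by 0.98, and *Myl9* (189 to 215 and 148 to 186) was not called, but was without d3 replicate 2 (-0.41). *Tagln*, *Acta2* and *Cnn1* are also part of the pericyte and smooth muscle sum given above, so its fall is not separate from theirs. None of 26 YAP and TAZ targets rose and 19 fell, with a median of -0.74. *Ctgf* went from 1080, 1010 and 1170 to 43.9, 55.5 and 45.1 (-4.48 ± 0.10, adjusted p = 3.1e-07), *Cyr61* from 700, 746 and 778 to 103, 119 and 103 (-2.76), and *Ankrd1* fell by 2.49. The libraries of d0 and d3 were apart in all 3, as in most called genes.

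Growth factor pathways fell in part. Of 41 tested TGF-β and BMP pathway members 25 fell and 4 rose, with a median of -0.69. The ligand *Tgfb1* went from 47.4, 52.2 and 54.1 to 9.74, 10.8 and 11.4 FPKM (-2.17 ± 0.08), *Bmp4* fell by 1.22 and the transducer *Smad3* by 1.11, while the receptor *Tgfbr2* was at 53.4 to 55.8 and 52.5 to 53.9 and was not called. Of 34 Wnt pathway members 11 rose and 13 fell, with a median of -0.14. *Wnt5a* went from 15, 14.5 and 12.5 to 2.26, 2.69 and 2.57 (-2.09), β-catenin *Ctnnb1* fell by 0.44 on the log2 scale, and the feedback target *Axin2* rose from 2.18 to 3.01 to 4.65 to 6.23 (0.78). *Sfrp5* was at or under 0.451 and below the filter. In IGF and FGF signalling 21 of 34 fell and 3 rose, with a median of -0.71. *Fgf1* went from 22.4, 23.2 and 22.9 to 2.51, 3.56 and 0.963 (-2.92) and the receptor *Igf1r* fell by 0.94, while *Igf1* (178 to 187 and 157 to 170) and its binding protein *Igfbp4* (1170 to 1210 and 1340 to 1420) were below the minimum fold.

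Imprinted genes, the class to which *H19* belongs, moved in both directions, as did all tested genes, of which 28.2% rose and 24.5% fell. Of 39 paternally expressed genes, 25 passed the filter, of which 9 rose and 8 fell, with a median of 0.05. *Peg3* went from 2.50, 1.94 and 1.52 to 4.90, 4.70 and 4.20 FPKM (0.92) and *Nnat* rose by 0.59, while *Peg10* went from 8.49, 7.96 and 6.34 to 2.19, 2.45 and 2.48 (-1.34) and *Dlk1* fell by 1.91. *Mest* (11.4 to 16.7 and 19.2 to 20.2, 0.43) was called, but without d0 replicate 3 (0.27) or without any single d3 library (0.40 to 0.44) it was not. *Igf2*, the neighbour of *H19*, was at 4.16, 2.1 and 3.93 at d0 and 1.32, 1.5 and 2.43 at d3. The days overlapped, and its call (-0.66, adjusted p = 0.046) was lost without d0 replicate 1 (-0.53), d0 replicate 3 (-0.56), d3 replicate 1 (-0.55) or d3 replicate 2 (-0.60). *Plagl1* (4.49 to 10 and 3.98 to 7.92) was not called, and *Gpr1* was at or under 0.0422. Of 25 tested maternally expressed genes 6 rose and 11 fell, with a median of -0.29. *Cdkn1c* rose by 3.10 and the cation transporter *Slc22a3* by 0.67. *Meg3*, a non-coding RNA of the *Dlk1* cluster, fell from 86.5, 102 and 90.5 to 47.5, 61.9 and 56.1 (-0.75), in the same direction as *Dlk1*. *Igf2r* was called at -0.44, but not without d0 replicate 1 (-0.33). *Dcn* (788 to 904) and *Grb10* (54.4 to 67.6 over all 6) were not called.

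Genes that answer to the agents of the induction medium were examined next. By the methods that medium was later replaced by one with rosiglitazone, and whether dexamethasone and IBMX were still present at d3 is not stated. Of 25 glucocorticoid-responsive genes 20 rose and 5 fell, with a median of 0.92. *Tsc22d3* (GILZ) went from 7.69, 6.26 and 7.74 to 82.8, 80.8 and 78.6 FPKM (3.32 ± 0.08), *Fkbp5* rose by 2.14, *Zbtb16* by 3.43 and the clock gene *Per1* by 0.73. cAMP-responsive genes, in contrast, fell in 16 of 24 and rose in 5, with a median of -1.16, and without d0 replicate 2 in 11 of 20. The orphan receptor *Nr4a1* went from 84.6, 128 and 105 to 9.44, 9.40 and 10.9 (-3.28 ± 0.15) and the kinase *Sik1* fell by 1.5. *Crem* (13.2 to 18.3 and 8.82 to 12.5, -0.46) was not called without d0 replicate 1 (-0.52), d0 replicate 3 (-0.32), d3 replicate 1 (-0.34) or d3 replicate 3 (-0.47), and *Pde4b* (-0.39) not without d0 replicate 1 (-0.37), d0 replicate 2 (-0.37) or d3 replicate 2 (-0.36).

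Stress responses fell in part. In the unfolded protein and ATF4 response 23 of 36 fell and 2 rose, with a median of -0.64. The chaperone *Hspa5* (BiP) went from 1070, 1060 and 1110 to 534, 528 and 501 FPKM (-1.05 ± 0.04), the anti-adipogenic *Ddit3* (CHOP) fell by 1.28 and *Atf4* by 0.84, while the ATF4 target *Asns* (136 to 151 and 114 to 118) was below the minimum fold. The Nrf2 antioxidant list divided into 14 rises and 13 falls among 33, with a median of 0.09. The inducible *Hmox1* (heme oxygenase) went from 662, 892 and 861 to 183, 161 and 178 (-2.19), and *Nqo1* and *Gclm* fell by 1.48 and 1.33. Among the other members, catalase and the superoxide dismutases *Sod1* and *Sod2* rose, by 1.59, 1.39 and 0.90. Proteasome genes were called in 9 of 31 (29.0%), fewer than the 52.7% of all tested genes. Of these 8 rose, near the 28.2% of all tested genes that rose, and 1 fell, with a list median of 0.16. *Psma1* went from 125, 122 and 127 to 424, 402 and 412 (1.72), *Psmb5* rose by 0.55, and *Psmd1* (70.0 to 72.1 and 72.8 to 76.9) was not called.

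Inflammatory genes had the lowest median of the 40 lists. Of 34 tested chemokines, cytokines and acute phase genes 24 fell and 5 rose, with a median of -1.5. The monocyte chemokine *Ccl2* went from 358, 470 and 452 to 27.0, 27.8 and 28.9 FPKM (-3.88 ± 0.10, adjusted p = 5.5e-07) and *Saa3* from 1850, 1980 and 2200 to 666, 721 and 751 (-1.49). *Cxcl12*, the stromal chemokine, was called as a rise (177 to 202 and 237 to 255, 0.39), but not without d0 replicate 1 (0.35), d0 replicate 2 (0.37) or d3 replicate 1 (0.36), nor under trimmed-mean (0.35) or upper-quartile scaling (0.37). Interferon-stimulated genes fell in 26 of 36 and rose in 4, with a median of -0.76. Their fall rested in part on d0 replicate 2, without which 17 of 32 fell and the median was -0.50. *Isg15* was at 44.4, 92.0 and 43.8 and then 19.6, 9.81 and 11.2 (-2.04 ± 0.35), *Ifit1* at 7.60, 18.1 and 9.35 and then 2.06, 1.48 and 0.671 (-2.36), and *Irf7* at 49.0, 67.7 and 28.9 and then 10.5, 6.36 and 7.02 (-2.42). In each of these 3 genes d0 replicate 2 was the highest library, yet, as in most called genes, no d3 library reached a d0 library.

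Complement genes showed 10 rises and 7 falls among 23, with a median of -0.06. The central component *C3* (601 to 678 and 578 to 600) was not called and *C4b* fell by 0.79. Among the other members, the macrophage-made *C1qa*, *C1qb* and *C1qc* rose by 1.56, 1.25 and 1.2. These genes are also part of the leukocyte marker sum given above, so its rise is not separate from theirs. Developmental regulators of depot identity changed little, with 8 that rose and 5 that fell of 26 and a median of 0.17. *Wt1*, a visceral and mesothelial factor, was at 33.8 to 35.3 and 25 to 27.4 (-0.40, not called without d3 replicate 2 at -0.38), *Gata6* fell by 0.49 on the log2 scale, *Nr2f1* rose by 0.78, and *Tcf21* (46.4 to 52.0 and 40.5 to 43.2) was below the minimum fold. *Wt1* is itself part of the mesothelial sum, which also fell.

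The same step was then set beside siCtrl vWAT cells, to ask whether the d0 to d3 change differed when *H19* was present. In siCtrl cells 6720 of 13368 tested genes were called (50.3%), of which 3519 rose (26.3%) and 3201 fell (23.9%). Across the 13115 genes tested in both, the changes had a Pearson's r of 0.94 and a Spearman's rho of 0.93. This is a description across genes, which are not independent replicates. Called in both were 5845 genes, 84.2% of the siH19 calls and 88.3% of the siCtrl calls among shared genes, with 5841 in the same direction and 4 in opposite directions. Most of the program was thus called under either siRNA.

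The difference itself was tested as the day by siRNA interaction over the 12 vWAT libraries. Of 13948 genes, 241 were called (1.73%), 203 with a more positive change in siH19 cells (1.46%) and 38 with a more negative change (0.272%). This count was less stable than the others. It was 127 without siH19 d3 replicate 1, 155 without siH19 d0 replicate 2, 158 without siCtrl d0 replicate 2, and 150 and 137 without siCtrl d3 replicates 2 and 3. Under upper-quartile scaling it was 190, with 136 positive and 54 negative, and with the replicate number as a block it was 99, with 90 positive and 9 negative.

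**Figure D4:**
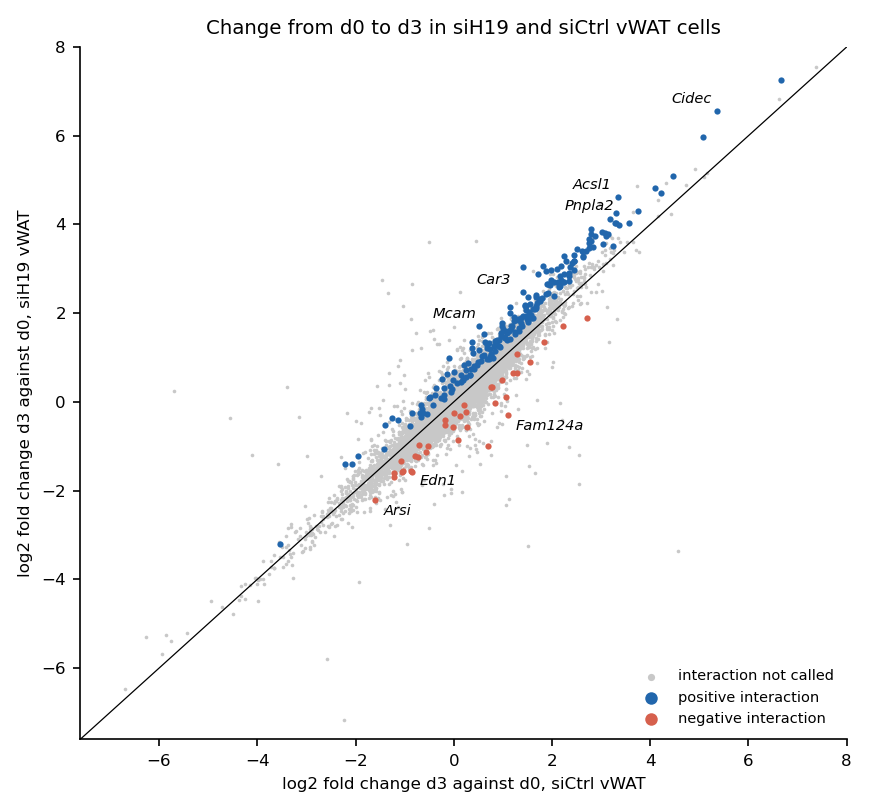
log2 fold change d3 against d0 in siCtrl (x axis) and siH19 vWAT cells (y axis) for each gene tested in both and in the interaction, with the line of equal change. Genes called with a positive interaction (blue) lie above the line and genes called with a negative interaction (red) below it.

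Most genes with a positive interaction rose under both siRNAs, and rose further in siH19 cells. Over the 203 genes the median change was 1.81 in siH19 and 1.31 in siCtrl cells. At d0 their median level in siH19 cells differed from siCtrl by -0.46 on the log2 scale, and at d3 by 0.08, with 155 of 203 called as rises under both siRNAs. *Acsl1*, which activates long-chain fatty acids, went from 77.8, 78.2 and 61.5 to 1890, 1780 and 1720 FPKM in siH19 cells and from a mean of 159 to 1640 in siCtrl cells (interaction 1.27 ± 0.13 SE, adjusted p = 0.00079). *Dgat2* went from a mean of 52.7 to 195 in siCtrl cells and from 24.5, 21.9 and 20.3 to 183, 166 and 188 in siH19 cells (1.09, adjusted p = 0.0016). The same held for *Cidec* (1.19), the cysteine dioxygenase *Cdo1* (1.1), *Car3* (1.08), the adhesion molecule *Mcam* (1.2) and *Sox6os*, a transcript opposite to *Sox6* (1.26). *Fam83a* (1.08) rose in siH19 cells (0.98) and was not called in siCtrl cells (-0.10).

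By list, positive interactions were called in 12 of 22 tested lipid droplet and lipolysis members, 9 of 24 of fatty acid uptake and binding, 7 of 25 adipokines, 6 of 19 of triglyceride synthesis and 5 of 22 of de novo lipogenesis, against 1.46% of all tested genes, and no member of these 5 lists had a negative interaction. *Lipe* (1.04), *Fabp4* (0.95), *Pnpla2* (0.94), *Plin1* (0.85) and *Adipoq* (0.76) were among them. Of the adipogenic transcription factors 4 had a positive interaction, *Pparg* among them (0.70, adjusted p = 0.0053), and *Cebpd* a negative one. *Fabp4*, for example, had a d0 mean of 2540 in siCtrl cells against 1340 to 1540 in siH19 cells, and a d3 mean of 14400 against 15500 to 16400. Adipsin *Cfd* had a positive interaction (0.72) because it fell by less, from 147, 126 and 153 in siH19 cells but from a mean of 261 in siCtrl cells, to d3 levels of 54.0 to 64.2 and 66.7. In the interferon list 6 rose and 10 fell of 32 in siCtrl cells, with a median of -0.30, but the interactions of *Isg15* (-0.98), *Ifit1* (-1.21) and *Irf7* (-1.02) did not pass the test.

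**Figure D5:**
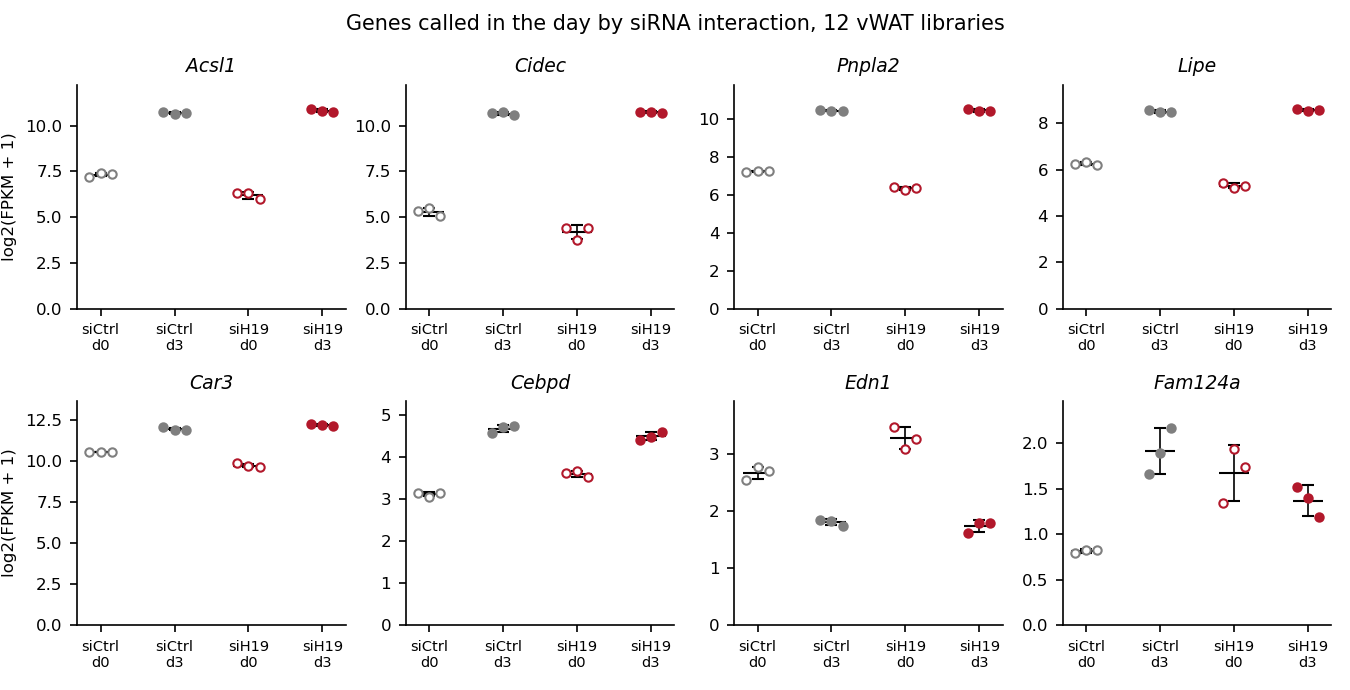
log2(FPKM + 1) of 8 genes called in the day by siRNA interaction (y axis) in the 12 vWAT libraries by siRNA and day (x axis), with points for libraries, open at d0 and filled at d3, bars for the mean and whiskers for the SD (n = 3). For *Acsl1*, *Cidec*, *Pnpla2*, *Lipe* and *Car3* the siH19 d0 libraries lie below the siCtrl d0 libraries, and the d3 libraries of both siRNAs lie close together.

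Negative interactions were fewer. *Cebpd* rose in siCtrl cells from a mean of 7.66 to 24.6 and in siH19 cells from 11.2, 11.7 and 10.4 to 20.1, 21.4 and 23.2 (interaction -0.67, adjusted p = 0.0076). *Edn1*, the vasoconstrictor peptide endothelin, fell further in siH19 cells, from 10.2, 7.54 and 8.63 to 2.08, 2.48 and 2.47, than in siCtrl cells, from a mean of 5.4 to 2.50 (-0.68). The sulfatase *Arsi* (-0.61), the repressor *Erf* (-0.58) and the chemokine *Cxcl5* (-0.74) also fell further. *Fam219b* (-0.87) and *Fam124a* (-1.40) rose in siCtrl cells and were not called in siH19 cells (*Fam124a* was called there without d0 replicate 1, at -0.47). *Serpina3k* (-0.81) was listed at 0 in all d0 libraries of both siRNAs and reached 2.29 to 3.16 in siH19 and a mean of 5.56 in siCtrl cells at d3. Over all 38 genes the median change was -0.54 in siH19 and 0.04 in siCtrl cells, with a d0 difference of 0.38 and a d3 difference of -0.12.

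Finally, siH19 vWAT cells were compared with siH19 BAT cells over the same days, under the different media given above. The *H19* left after silencing differed too, with d3 means of 0.528 FPKM in vWAT and 13.7 in BAT cells. In siH19 BAT cells 7857 of 12962 genes were called (60.6%), of which 3998 rose (30.8%) and 3859 fell (29.8%). Over 12454 genes tested in both, r was 0.82 and rho 0.79 as a description across genes, and 5311 genes were called in both, 81.2% of the vWAT and 70.4% of the BAT calls among shared genes. Of these 5100 moved in the same direction, 146 rose in vWAT and fell in BAT cells, and 65 did the reverse. The day by depot interaction called 6012 of 14055 genes (42.8%), 2785 with a more positive change in vWAT (19.8%) and 3227 with a more negative change (23.0%).

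The mitochondrial rise was smaller in vWAT. Of 37 complex I subunits 35 had a negative interaction, as did 38 of 41 subunits of complexes II to V, 12 of 13 mitochondrial mRNAs, 28 of 30 genes of fatty acid oxidation and 27 of 31 proteasome genes, against 23.0% of all tested genes. The complex I median was 1.21 in vWAT and 1.90 in BAT. *Cox7a1*, a cytochrome oxidase subunit of heat-producing and contractile tissue, went from 2.15, 1.54 and 1.57 to 22.6, 19.7 and 21.7 in vWAT and from 0.76, 1.48 and 2.07 to 172, 193 and 182 in BAT cells (interaction -3.24, adjusted p = 2.1e-06). Lipid droplet genes followed, with 19 negative and 1 positive interactions among 24 and medians of 2.36 and 3.54. *Ucp1* and *Cidea*, at or near 0 in vWAT, rose in BAT cells by 1.89 and 2.19. Conversely, the loss of stromal genes was smaller in vWAT. Positive interactions were called in 24 of 28 contractile genes, 22 of 34 precursor markers, 31 of 51 matrix genes and 16 of 23 complement genes, against 19.8% of all tested genes.

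The genes of largest positive interaction were of several kinds. *Cyp2e1* went from 0.596 to 0.837 to 251 to 288 in vWAT but from 0.07 to 0.102 to 2.22 to 4.48 in BAT cells (5.19, adjusted p = 1.0e-07). The glutamate carboxypeptidase *Folh1* (3.90), the protease inhibitor *Ctla2a* (3.70) and the ferritin receptor *Scara5* (3.19) also rose steeply in vWAT, *Scara5* from 5.92, 6.91 and 6.20 to 141, 130 and 131. The matrix genes *Aspn* (4.24) and *Ogn* (3.62), the glutamyl transferase *Ggt5* (3.62) and the secreted lectin *Clec3b* (3.99) fell in BAT cells, with *Ogn* at 58.8 to 61.2 at d0 and 2.97 to 3.78 at d3 there, but at 61.5 to 68.8 and 53.4 to 57.9 in vWAT. *Clec3b* rose in vWAT by 0.48, a call lost without d0 replicate 1 (0.36).

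The most negative interactions included genes that started high in vWAT. *Olr1*, the receptor of oxidised LDL, fell in vWAT from 31.5, 32.5 and 33.0 to 3.10, 3.34 and 3.27 and rose in BAT cells from 21.2 to 27.7 to 47.1 to 56.8 (-4.05, adjusted p = 1.0e-08). *Ezr* (ezrin, -3.54), the secreted *Angptl7* (-3.46) and the guidance cue *Sema3a* (-3.15) fell in vWAT, *Ezr* from 54.5, 60.8 and 66.5 to 6.02, 9.77 and 8.46. *Ezr* is also made by mesothelium, whose marker sum fell in vWAT. *Fam110c* (-4.05) and *Fam83a* (-3.28) rose steeply in BAT cells from under 1.36, and *Dhrs9* (-3.16), a retinol dehydrogenase below the filter in vWAT, rose there to 9.44 to 10.1.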

How the data were processed

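RNA was sequenced from 24 libraries, of which 6 carry the comparison. The authors deposited 1 table of gene-level FPKM values on Ensembl genes of GRCm38.p5, and the labels name FastQC 0.10.1, TopHat2 2.0.10, STAR, Cufflinks 2.2.1, DESeq2 and R 3.2.2 without roles. The table's header names no unit, and FPKM was taken from the methods. FPKM keep no counts, so no interval of counting error could be given. Read length and layout differ between the labels and the methods, and the labels alone describe the library kit as directional with poly-A selection.

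Columns were matched to samples by title, and no column was left out. Values were transformed to log2(FPKM + 1) and fitted with limma 3.58.1 (R 4.3.3, trend on the mean, Benjamini-Hochberg adjustment over all tested genes). Each d0 to d3 comparison used its own 6 libraries and the genes that reached an FPKM of 1 in 3 or more. Interactions used 12 libraries, an adjusted p under 0.05 and no minimum fold. Errors are standard errors (SE) of the log2 change, or SD where stated. Marker sums were compared with exact two-sided permutation tests (scipy 1.17.1). The fits were tested on simulated data.

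The comparison and the gene lists were chosen with earlier results of these data known. Named genes were set members written ahead for each list, the 10 largest rises and falls and the 10 largest gains and losses in FPKM, and the 8 largest interactions in each direction, leaving out small RNAs, receptor segments and placeholder names, and for rises, falls, gains and losses genes whose d0 and d3 libraries overlapped. Alternatives were a pseudocount of 0.1, no filter, an FPKM of at least 5, trimmed-mean and upper-quartile scaling, no trend, all 12 libraries, other minimum folds, a replicate block and leaving out each library. Per list, d0 replicate 2 was left out as an alternative chosen after seeing the data. *Pc*, *Fbxo31*, *Cox4i1*, *Mvd*, *Gins2*, *Cdt1*, *Slc7a5* and *C5* were not analysed here. Some genes that the naming rule picks are not reported here.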

Additional observations from a re-analysis of the deposited data

Results flagged for a closer look

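Of the d0 to d3 changes, those that differed between siRNAs or between depots by a test of the interaction itself stand out. The day by siRNA interaction in vWAT cells was called in 241 genes. Changes were more positive in siH19 cells for *Acsl1* (1.27), *Sox6os* (1.26), *Mcam* (1.2), *Cidec* (1.19), *Cdo1* (1.1), *Dgat2* (1.09), *Car3* (1.08) and *Fam83a* (1.08), and more negative for *Fam124a* (-1.40), *Fam219b* (-0.87), *Serpina3k* (-0.81), *Cxcl5* (-0.74), *Edn1* (-0.68), *Cebpd* (-0.67), *Arsi* (-0.61) and *Erf* (-0.58), all on the log2 scale.

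Among genes of the lists, the interaction was positive for the regulators *Pparg* (0.70) and *Cebpa* (0.44). It was positive for the droplet and lipolysis genes *Plin1* (0.85), *Plin4* (0.73), *Pnpla2* (0.94), *Lipe* (1.04) and *G0s2* (0.69). The same sign was called for *Agpat2* (0.75), *Gpam* (0.43), *Dgat1* (0.74), *Scd1* (0.71), *Fabp4* (0.95), *Cd36* (0.48) and *Lpl* (0.44). Of secreted proteins, *Adipoq* (0.76), *Cfd* (0.72), *Retn* (0.55), *Rbp4* (0.56), *Agt* (0.32) and *Postn* (0.63) were called. The peroxisomal *Cat* (0.48) and *Pex11a* (0.54) and the cell cycle inhibitor *Cdkn2c* (0.51) completed the set.

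The day by depot interaction in siH19 cells was called in 6012 genes. It was most positive, for vWAT against BAT, in *Cyp2e1* (5.19), *Aspn* (4.24), *Clec3b* (3.99), *Folh1* (3.90), *Ctla2a* (3.70), *Ogn* (3.62), *Ggt5* (3.62) and *Scara5* (3.19). It was most negative in *Olr1* (-4.05), *Fam110c* (-4.05), *Ezr* (-3.54), *Angptl7* (-3.46), *Fam83a* (-3.28), *Cox7a1* (-3.24), *Dhrs9* (-3.16) and *Sema3a* (-3.15). Depot and medium cannot be told apart in these values.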

How the results depend on the processing

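The count of genes called from d0 to d3 in siH19 vWAT cells (7037) was 5470 to 7499 under the other filters, pseudocount, scalings, trend and fit over 12 libraries, and 6559 to 6678 without any single library. With a minimum of 2-fold it was 2478, and the counts in siCtrl vWAT and siH19 BAT cells were 2177 and 3744. Without any single library the latter counts were 6327 to 6394 and 7240 to 7363, the share of list members called was 74.9 to 75.6%, and the day by depot count was 5457 to 5691. In siH19 vWAT cells trimmed-mean scaling gave 3571 rises and 3476 falls, and upper-quartile scaling 3664 and 3362, against 3761 and 3276 without scaling. Upper-quartile scaling gave 3766 rises and 4145 falls in BAT cells. The day by siRNA count (241) was the least stable, at 127 to 241 without any single library. Same-numbered d0 and d3 libraries did not deviate together (correlations of -0.05 to 0.01), so the numbers were not taken as pairs. With a replicate block the day by siRNA count was 99 (96 of them among the 241), while the others were 7020, 6697, 7816 and 5501 in the order siH19, siCtrl, BAT and depot; the cause was not tested. Of 2814 values of 205 named genes under an alternative, 2773 kept direction and call, 27 lost the call, 14 gained it and none reversed, in 16 genes. Among these, *Mcm2*, *Igf2*, *Mest*, *Crem*, *Pde4b* and *Cxcl12* depended on several single libraries. The calls of *Mcm2*, *Cdkn1a*, *Gata3*, *Igf2*, *Mest*, *Crem* and *Cxcl12* also changed under another filter, scaling, block or fit. The depth of FPKM values is unknown, and 3 libraries a group limit the precision.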
